A study of Mus musculus with 12 samples.

Results

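RNA of 79 genes of mitosis and cell cycle control was measured in cells sorted from the dentate gyrus of the adult mouse. They were picked by gene symbol and by being above 0 in enough libraries, with earlier results of these data known. Symbols of the centromere proteins (Cenp), the NIMA-related, Polo-like and Aurora kinases (Nek, Plk, Aurk), the spindle checkpoint, cyclins, cyclin-dependent kinases and their inhibitors (Ccn, Cdk, Cdkn), the Cdc and Cdca names, the anaphase-promoting complex (Anapc), cohesin, condensin and some spindle genes were searched for. Of 10749 listed genes, 81 carried such a symbol and 79 of these were above 0 in at least 4 of 12 libraries. A filter on low values left 77 of the 79 among 8361 tested genes, and Nek10 and the pseudogene Cdk3-ps did not pass it.

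The series compares RNA of 3 cell populations of the dentate gyrus that were separated by fluorescence-activated sorting. Each population has 4 libraries. The mice were 8 weeks old and carried the transgene Tg(Lpar1-EGFP)GX193Gsat, in which regulatory sequence of the lysophosphatidic acid receptor gene Lpar1 drives a green fluorescent protein (LPA1-GFP). The line came from an FVB/N-Swiss Webster background and was rederived into C57BL/6. Stem libraries held cells that were LPA1-GFP+EGFR+Prominin1+, where EGFR is the receptor of epidermal growth factor and Prominin-1 a membrane glycoprotein. Progenitor libraries held GFP-positive cells of the other 3 marker combinations, which lack EGFR, Prominin-1 or both. Niche libraries held LPA1-GFP- cells of the same tissue. All 3 groups share the transgene, the age and the sort, and no group was treated. Nothing in the labels tells if replicates came from separate animals or pools. The p-values below therefore reflect only how far these libraries varied, which may be partly technical.

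Cyclin-dependent kinases, switched on by cyclins and held back by inhibitor proteins, move a cell from growth through DNA replication into mitosis. In mitosis condensin compacts the chromosomes, kinetochores built on centromeres tie them to the spindle, and a checkpoint holds the anaphase-promoting complex until every chromosome is attached. That complex then lets separase cut cohesin, and the cell divides. The dentate gyrus is one of the few places of the adult mouse brain where neurons are still made, from stem cells that divide rarely and from progenitors that divide more often. Many mitotic genes are transcribed only in dividing cells, while several genes with Cdk, Cdc or Cdkn names work outside the cell cycle.

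Depth ran from 7597256 to 22854036 reads per library, and 8037 to 9700 genes were above 0. Of the 10579 listed genes with a position, 99.94% lie on the plus strand of the reference. Of protein-coding genes whose symbol fits the search, 80 of 83 on the plus strand and 0 of 94 on the minus strand were listed. So Mki67, Cdk1, Cdk2, Ccna2, Ccnb1, Ccnd1, Aurka, Bub1 and Cdc20, among others, were not analysed here, and the 79 genes are the plus-strand part of the cell cycle. Of the 10 neural stem and radial glia markers looked up, 7 were listed, and their summed level had a range of 615 to 1236 (stem), 1179 to 2653 (progenitor) and 845 to 1670 (niche). The sum mixes members that run in different directions: mean Sox1 reached 24.1 in stem but 2.70 in niche (limma, adjusted p = 0.000403 for stem against niche), while mean Id3 reached 31.4 in stem but 517 in niche (adjusted p = 4.6e-05). Of the macrophage markers 5 of 9 were listed, with sums of 1905 to 7327 (stem), 108 to 221 (progenitor) and 2441 to 4553 (niche). Progenitor replicate 1 and niche replicate 1 stood apart from their groups, and calls of named genes gained or lost without them are summarised after the counts. Levels below are RPKM (reads for each kilobase of a gene's exons, relative to library depth), adjusted between libraries by trimmed means of M-values (TMM), and the values of a group stand in the order of replicates 1 to 4.

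In most of the 77 tested genes RNA was highest in stem, lower in progenitor and lowest in niche. The group means of log2 values fell in this order in 54 of 77 (70.1%), against 26.3% of all tested genes. In 20 genes (26.0%) every stem library was above every progenitor library and every progenitor library above every niche library, a pattern found in 1.34% of all tested genes. The mitotic kinase Plk1 was among them, with TMM-scaled RPKM of 159, 62.8, 139 and 143 in stem, 11.3, 15.8, 21.9 and 24.5 in progenitor and 2.77, 0.545, 4.66 and 1.76 in niche. Every stem library held more of it than any progenitor library.

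**Figure D1:**
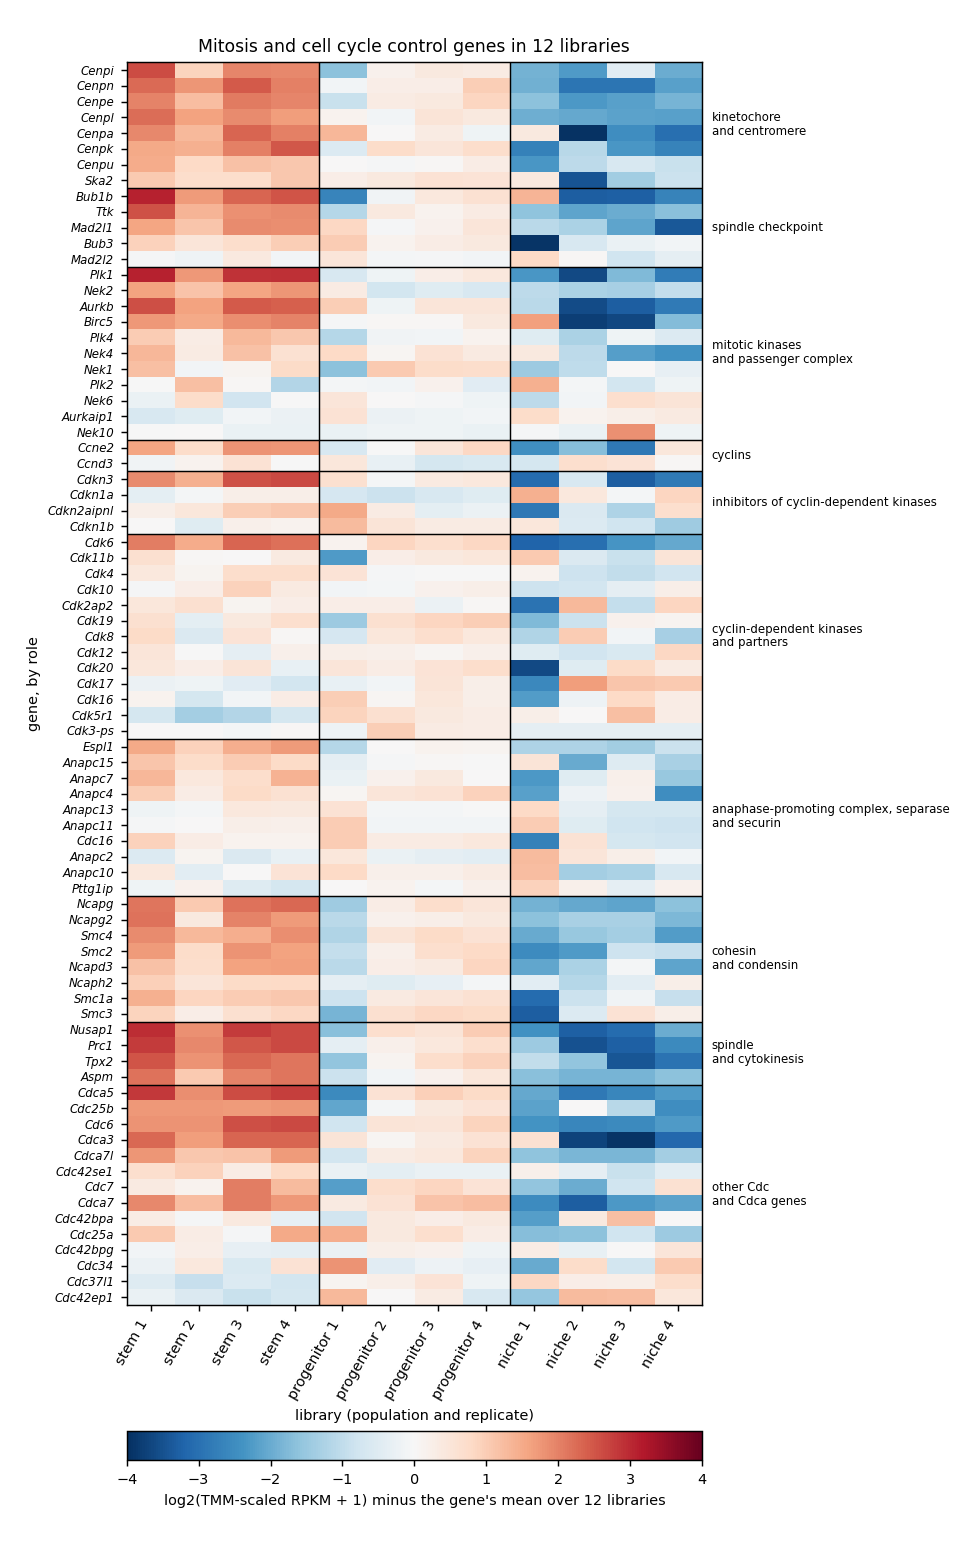
Levels of the 79 genes (vertical axis, grouped by role) in the 12 libraries (horizontal axis), shown in colour as log2(TMM-scaled RPKM + 1) minus the mean of the gene over all libraries. The stem columns are red and the niche columns blue for kinetochore, spindle, condensin and several Cdca genes, while most Cdk and Anapc genes stay pale; stem replicate 2 is paler than the other stem columns.

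Between stem and progenitor, 18 of 77 genes were higher in stem and 1, Cdk5r1, was lower (limma, adjusted p under 0.05 over all tested genes). Of all tested genes 3.74% were called higher and 3.54% lower. The median log2 fold change was 0.91 in the 77 genes and -0.06 in all tested genes. The groups did not overlap, with stem above, in 36 of the 77, against 11.3% of all tested genes, and with stem below in 3 (13.5%). This number of calls rests on few libraries. It was 4 without stem replicate 1, 6 without stem replicate 3, 6 without stem replicate 4, 10 without progenitor replicate 1, 9 without progenitor replicate 2, 11 without progenitor replicate 3 and 30 without niche replicate 1. Calls over all tested genes moved too: the number higher went from 313 to 204, 251, 243, 225, 229, 225 and 536 in the same order. Plk1, Prc1 and Nek2 were called under all 12 omissions of 1 library and under all 8 other settings. Unless stated, losses given with a gene below are those without 1 library. A pseudocount of 0.1 RPKM also lost Aspm, Aurkb, Cdc6, Cdca5, Cenpe, Cenpi, Cenpl, Cenpn, Espl1, Ncapg, Ncaph2, Tpx2 and Ttk. The calls of Aurkb, Cenpi, Ncaph2 and Tpx2 were lost with no filter, and those of Cenpe, Cenpi and Tpx2 with a replicate block. Library totals alone lost Cenpi and Ncaph2.

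Between stem and niche, 45 of 77 genes were higher in stem and 2, Cdk5r1 and the cochaperone gene Cdc37l1, were lower. The background was 11.3% of all tested genes higher and 10.6% lower. The median log2 fold change was 1.98, against 0.11 in all tested genes, and 42 genes did not overlap with stem above (12.6% of all tested genes) and 3 with stem below (10.2%). Of the 45 calls, 40 held under each omission and each other setting. The rest (Anapc4, Anapc15, Bub3, Cdc42se1 and Plk4) were lost without some libraries and also with only the 2 groups compared. Between progenitor and niche, 24 of 77 were higher in progenitor and 1, Cdkn1a, was lower, against 6.09% and 5.67% of all tested genes. The median was 1.26, against 0.17, and 23 genes did not overlap with progenitor above (9.05% of all tested genes) and 1 with progenitor below (6.67%). Without progenitor replicate 3 the number higher was 15, and without progenitor replicate 1 and niche replicate 1 together it was 38. Over all tested genes that number was 246 and 886 there, against 509 with all libraries. Of the 24 calls, 14 held throughout. The other 10 (Aspm, Cdca3, Cdca5, Cdca7l, Cenpa, Ncapg, Smc2, Smc4, Tpx2 and Ttk) were each lost without 1 or more of progenitor replicates 1 to 4 and niche replicates 2 to 4 (adjusted p up to 0.113). Of these 10, Aspm, Ncapg and Ttk were also lost with a pseudocount of 4 RPKM, and Cdca5 with voom. With only the 2 groups compared, Cdca3, Cdca5, Cenpa, Ncapg, Smc2, Smc4 and Tpx2 were lost. The comparisons share libraries, so their values are set side by side and not counted as support for each other.

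Some differences that missed the threshold with all 12 libraries passed it without niche replicate 1. Among the named genes these were Birc5, Bub1b, Cdc25b, Cdca3, Cdkn3, Cenpa, Gtse1, Mad2l1, Pbk and Smc4 for stem against progenitor, all higher in stem (limma, adjusted p of 0.000426 to 0.0477). For stem against niche they were Aurkaip1 and Cdc42ep1, both lower in stem, at -0.69 (adjusted p = 0.0404) and -1.69 (adjusted p = 0.0134). For progenitor against niche they were Birc5 at 3.14 (adjusted p = 0.000183), Bub1b at 2.64 (adjusted p = 0.0104), Cdk4 at 0.87 (adjusted p = 0.0116), Cdkn1b at 1.44 (adjusted p = 0.00422) and Ska2 at 2.26 (adjusted p = 0.00352). Without progenitor replicate 1, Cenpi, Depdc1a and Espl1 were called for progenitor against niche, at 1.95 (adjusted p = 0.0324), 2.10 (adjusted p = 0.0111) and 1.27 (adjusted p = 0.0436). In the same setting Aurkaip1 was called lower in stem than in niche. Without both libraries Cdk4 was also called for stem against progenitor, at 0.53 (adjusted p = 0.0398), and Ccnd3 was called lower in progenitor than in niche, at -1.05 (adjusted p = 0.0437). Calls were lost as well, 12 of them among the named genes without progenitor replicate 1. For stem against progenitor these were Aurkb, Cdk5r1, Cdk6, Cenpe, Cenpi, Espl1, Ncapg, Tacc3, Tpx2 and Ube2c. For progenitor against niche they were Cdkn1a and Cenpa. Without both libraries Cenpi was lost for stem against progenitor.

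**Figure D2:**
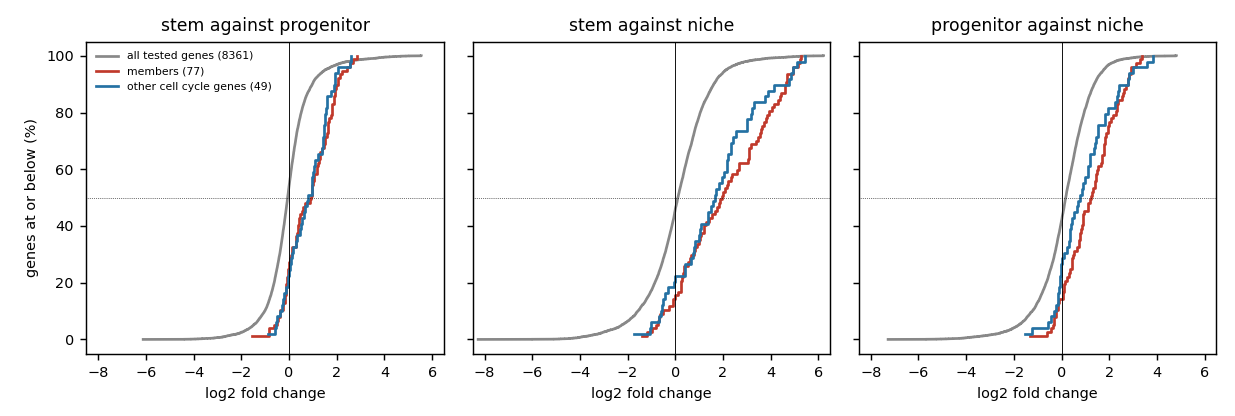
Share of genes (vertical axis, percent) at or below each log2 fold change (horizontal axis) in the 3 comparisons, for all 8361 tested genes (grey), the 77 tested genes described here (red) and 49 other cell cycle genes (blue). The red and blue curves lie to the right of the grey one, and they cross 50% at 0.91 and 0.78, 1.98 and 1.69, and 1.26 and 0.79 in the panels from left to right.

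Among the mitotic kinases and the passenger complex, 3 of 10 tested genes rose from progenitor to stem (Plk1, Aurkb and Nek2), 6 were higher in stem than in niche and 2 (Plk1 and Aurkb) were higher in progenitor than in niche. Plk1 (ENSMUSG00000030867, chr7:122159439-122169873 of GRCm38), the Polo-like kinase of mitotic entry and spindle assembly, had the largest log2 fold change of the called genes in the first comparison, 2.69 ± 0.47 (SE, adjusted p = 0.00217). It was 5.28 ± 0.47 (SE, adjusted p = 2.1e-06) between stem and niche and 2.59 ± 0.47 (SE, adjusted p = 0.00175) between progenitor and niche. Nek2 (ENSMUSG00000026622, chr1:191821444-191833050), a kinase of centrosome separation, was far less abundant, at 7.24, 4.94, 7.09 and 8.22 in stem, 2.42, 0.636, 0.960 and 0.757 in progenitor and 0.326, 0.129, 0.0808 and 0.407 in niche. Its groups did not overlap in any comparison, with a log2 fold change of 1.89 ± 0.39 (SE, adjusted p = 0.00684) for stem against progenitor and 2.66 ± 0.39 (SE, adjusted p = 0.00016) for stem against niche. For progenitor against niche it was 0.77 ± 0.39 (SE, adjusted p = 0.221), which missed the threshold.

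Aurkb, the kinase of the chromosomal passenger complex, stood at 105, 52.9, 95.5 and 92.8 in stem, 33.9, 14.7, 23.7 and 23.6 in progenitor and 7.39, 0.472, 0.804 and 1.52 in niche. It was 1.82 ± 0.52 (SE, adjusted p = 0.0436) higher in stem than in progenitor on the log2 scale, and this call was lost without stem replicates 1, 2, 3 and 4 and progenitor replicates 1, 2, 3 and 4 (adjusted p up to 0.144). Birc5, the survivin subunit of the same complex, had 61.00, 52.2, 66.3 and 72.5 in stem, 17.2, 18.4, 18.1 and 23.4 in progenitor and 56.9, 0.372, 0.510 and 4.64 in niche. Stem did not overlap with progenitor, but niche replicate 1 lay within the stem range and far above the other niche libraries. The log2 fold change of Birc5 was 1.66 ± 0.85 (SE, adjusted p = 0.345) for stem against progenitor. Without niche replicate 1 it was 1.68 with an adjusted p of 0.012. That library is in neither group but enters the shared estimate of spread, the filter and the scaling. Plk4, the kinase of centriole duplication, differed by 1.54 ± 0.45 (SE, adjusted p = 0.0233) between stem and niche, a call lost without stem replicates 1, 3 and 4 and niche replicate 2 (adjusted p up to 0.0692), and by 1.23 ± 0.45 (SE, adjusted p = 0.134) between stem and progenitor. The stress-responsive relative Plk2 was at 23.3, 55.7, 24.2 and 9.92 in stem, 21.9, 21.6, 26.8 and 16.7 in progenitor and 64.7, 22.04, 13.6 and 20.5 in niche, with overlapping groups throughout. Nek6 and Nek1 were not called in any comparison, and Aurkaip1, a protein of mitochondrial ribosomes that binds Aurora A, was -0.38 ± 0.28 (SE, adjusted p = 0.578) for stem against progenitor.

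The spindle and cytokinesis genes were called higher in all 3 comparisons, 4 of 4 each time, against 3.74%, 11.3% and 6.09% of all tested genes. Prc1 (ENSMUSG00000038943, chr7:80294450-80316259) bundles the microtubules of the central spindle. Its levels were 135, 72.96, 108 and 119 in stem, 14.1, 21.1, 25.1 and 29.9 in progenitor and 6.03, 0.722, 1.01 and 2.32 in niche, and the 3 groups did not overlap. Its log2 fold changes were 2.23 ± 0.46 (SE, adjusted p = 0.00675) for stem against progenitor, 5.16 ± 0.46 (SE, adjusted p = 2.1e-06) for stem against niche and 2.93 ± 0.46 (SE, adjusted p = 0.0006) for progenitor against niche. Nusap1, which links microtubules to chromosomes, had 96.6, 43.8, 86.1 and 78.6 in stem, 2.93, 19.01, 17.2 and 24.4 in progenitor and 1.36, 0.327, 0.505 and 2.20 in niche. Progenitor replicate 1 was the lowest of its group, yet above every niche library. The log2 fold change of Nusap1 was 2.43 ± 0.57 (SE, adjusted p = 0.0147) for stem against progenitor, a call lost without stem replicate 1 (adjusted p up to 0.0571), and 5.23 ± 0.57 (SE, adjusted p = 1.1e-05) for stem against niche.

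Tpx2, the activator of Aurora A on the spindle, was at 102, 61.9, 87.2 and 77.7 in stem, 5.06, 18.4, 28.4 and 33.1 in progenitor and 8.11, 5.03, 0.688 and 1.33 in niche. Here progenitor replicate 1 fell between the niche libraries. Stem was 2.15 ± 0.60 (SE, adjusted p = 0.0411) above progenitor, a call lost without stem replicates 1, 2, 3 and 4 and progenitor replicates 1, 2 and 3 (adjusted p up to 0.123). Aspm, a protein of the spindle pole whose loss gives a small brain, was at 16.7, 7.07, 14.5 and 16.1 in stem, 1.14, 2.65, 3.39 and 4.40 in progenitor and 0.231, 0.0828, 0.0795 and 0.255 in niche. Its log2 fold change was 1.92 ± 0.45 (SE, adjusted p = 0.0139) for stem against progenitor, lost without stem replicates 1 and 4 (adjusted p up to 0.0522), 3.59 ± 0.45 (SE, adjusted p = 3.5e-05) for stem against niche and 1.67 ± 0.45 (SE, adjusted p = 0.0239) for progenitor against niche. The last of these was lost without progenitor replicates 2, 3 and 4 (adjusted p up to 0.0938).

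**Figure D3:**
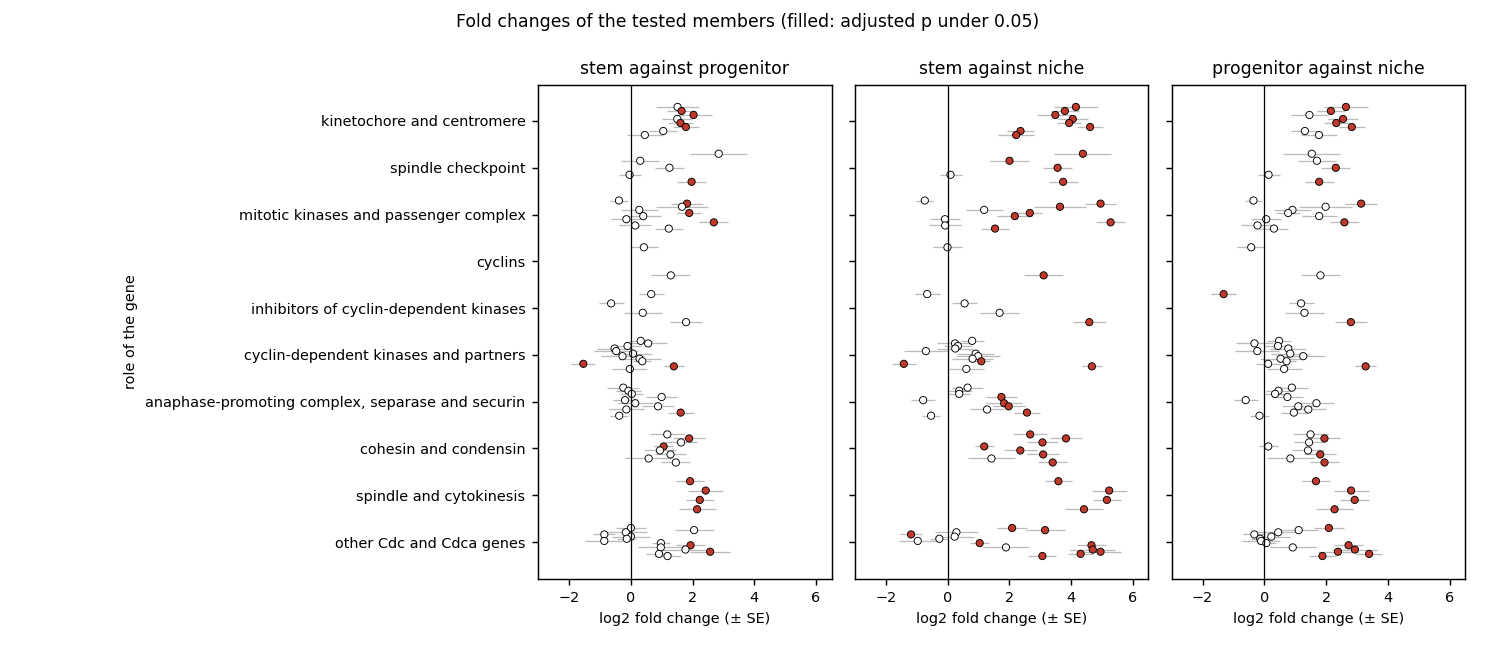
Log2 fold changes (horizontal axis, points with bars of 1 SE) of the 77 tested genes by role (vertical axis) in the 3 comparisons, with filled points for adjusted p under 0.05. Kinetochore, spindle and condensin genes lie to the right of 0 in every panel, while the cyclin-dependent kinases have medians of 0.02, 0.70 and 0.58 from left to right, with Cdk6 far to the right in every panel and Cdk5r1 to the left in both panels with stem.

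Of the 8 kinetochore and centromere genes, 4 were higher in stem than in progenitor, 8 higher in stem than in niche and 5 higher in progenitor than in niche. Over all tested genes 3.74%, 11.3% and 6.09% were called higher. None of the 8 was called lower, and their median log2 fold changes were 1.56, 3.87 and 2.24. Cenpn, which recognises the centromeric nucleosome, was at 54.9, 38.8, 63.2 and 46.2 in stem, 9.78, 13.04, 12.9 and 21.9 in progenitor and 2.05, 0.536, 0.536 and 1.60 in niche. Those groups did not overlap, and the log2 fold changes were 1.78 ± 0.42 (SE, adjusted p = 0.0153), 4.61 ± 0.42 (SE, adjusted p = 2.3e-06) and 2.83 ± 0.42 (SE, adjusted p = 0.00036) in the same order. The first was lost without stem replicates 1 and 3 and progenitor replicates 2 and 3 (adjusted p up to 0.0614). Cenpe, the motor that brings chromosomes to the spindle equator, had 25.1, 14.5, 26.7 and 24.4 in stem, 2.55, 7.17, 7.65 and 10.9 in progenitor and 1.13, 0.340, 0.465 and 0.821 in niche, with 1.64 ± 0.46 (SE, adjusted p = 0.042) for stem against progenitor. This call was lost without stem replicates 1, 2, 3 and 4 and progenitor replicates 1, 2 and 3 (adjusted p up to 0.124).

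Cenpi, a subunit of the inner kinetochore, had the largest log2 fold change of this group for stem against progenitor, 2.03 ± 0.59 (SE, adjusted p = 0.0485). Its levels were 29.9, 8.34, 18.5 and 18.02 in stem, 0.613, 4.71, 5.56 and 5.34 in progenitor and 0.356, 0.0393, 2.73 and 0.278 in niche. The call was lost without stem replicates 1, 3 and 4, progenitor replicates 1, 2, 3 and 4 and niche replicate 4 (adjusted p up to 0.156) and under 6 of the 8 other settings. Cenpa, the histone H3 variant that marks the centromere, averaged 82.1 ± 22.95 (SD, n = 4) across stem libraries, 29.8 ± 16.2 (SD, n = 4) across progenitor and 8.06 ± 12.8 (SD, n = 4) across niche. Stem against niche gave 4.15 ± 0.70 (SE, adjusted p = 0.00054), while stem against progenitor gave 1.51 ± 0.70 (SE, adjusted p = 0.274). Without niche replicate 1 the latter was 1.54 with an adjusted p of 0.0169, and without progenitor replicate 1 and niche replicate 1 it was 1.85 with an adjusted p of 0.00576. Progenitor replicate 1, at 53.5, lay within the stem range of 52.5 to 108. Ska2, of the complex that couples kinetochores to microtubule ends, had the smallest difference, 0.45 ± 0.58 (SE, adjusted p = 0.815) for stem against progenitor.

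The 5 spindle checkpoint genes split by member. Ttk, the kinase that starts the checkpoint, rose in all 3 comparisons, with 24.96, 10.4, 14.8 and 15.6 in stem, 1.04, 4.92, 3.95 and 4.58 in progenitor and 0.480, 0.0397, 0.132 and 0.406 in niche. Its log2 fold change for stem against progenitor was 1.97 ± 0.47 (SE, adjusted p = 0.016), lost without stem replicate 1 (adjusted p up to 0.0667), and its call for progenitor against niche was lost without progenitor replicates 2, 3 and 4 (adjusted p up to 0.0842). Mad2l1, the checkpoint protein that binds Cdc20, was at 68.5, 48.4, 83.6 and 82.04 in stem, 39.9, 21.2, 24.7 and 31.2 in progenitor and 9.96, 8.61, 4.30 and 1.22 in niche, and the groups did not overlap. It was 3.56 ± 0.47 (SE, adjusted p = 6.8e-05) higher in stem than in niche and 2.31 ± 0.47 (SE, adjusted p = 0.00469) higher in progenitor than in niche, while 1.25 ± 0.47 (SE, adjusted p = 0.151) for stem against progenitor missed the threshold. Its relative Mad2l2, which acts in DNA repair, was at 36.4, 33.6, 50.5 and 34.95 in stem, 52.8, 35.7, 36.8 and 34.9 in progenitor and 66.7, 38.8, 21.5 and 29.4 in niche. These ranges overlapped in all 3 comparisons, with log2 fold changes of -0.04, 0.09 and 0.13.

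Bub1b, the BubR1 checkpoint protein, had the largest log2 fold change of all 77 genes for stem against progenitor, and it was not called. Its levels were 121, 46.7, 71.2 and 82.6 in stem, 1.33, 12.03, 18.6 and 21.02 in progenitor and 36.04, 0.464, 0.493 and 1.30 in niche, so that stem was above progenitor in every library. Niche replicate 1 at 36.04 and progenitor replicate 1 at 1.33 lay far from their groups, and the shared SE was wide: the value was 2.85 ± 0.92 (SE, adjusted p = 0.08). Without niche replicate 1 it was 2.88 with an adjusted p of 0.00498. Bub3, which recruits checkpoint proteins to kinetochores, was higher in stem than in niche, 2.01 ± 0.62 (SE, adjusted p = 0.0306), a call lost without stem replicates 1, 2, 3 and 4 (adjusted p up to 0.0752). It was 0.30 for stem against progenitor.

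**Figure D4:**
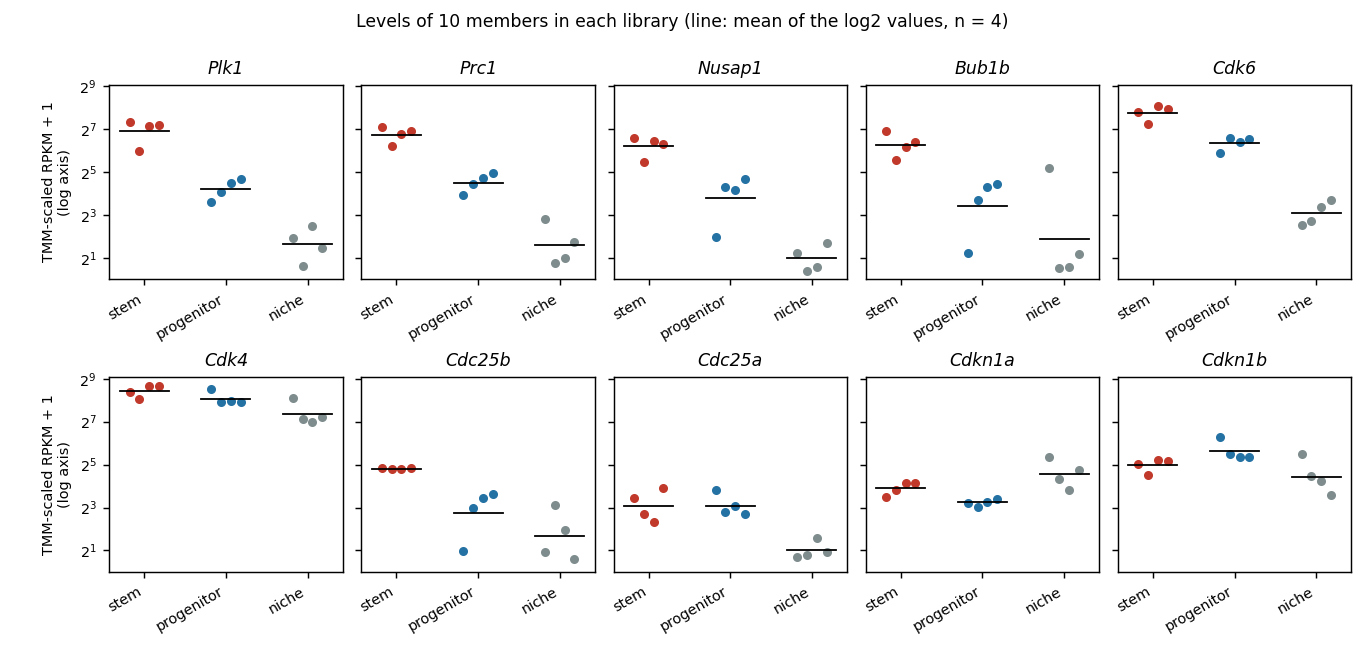
Levels of 10 genes in each library (vertical axis, TMM-scaled RPKM + 1 on a log axis) by population (horizontal axis), with a line at the mean of the log2 values (n = 4). Plk1, Prc1 and Nusap1 step down from stem to niche, Cdk4 stays within 125 to 406, Cdc25a steps down only at niche, and the lone high niche point of Bub1b is replicate 1.

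Of the 8 cohesin and condensin genes, 2 were higher in stem than in progenitor, 7 higher in stem than in niche and 3 higher in progenitor than in niche. Ncapg, a subunit of condensin I, was at 24.3, 10.9, 25.2 and 27.4 in stem, 1.18, 6.04, 8.41 and 7.18 in progenitor and 0.546, 0.392, 0.351 and 0.853 in niche. It was 1.89 ± 0.52 (SE, adjusted p = 0.0357) for stem against progenitor, lost without stem replicates 1, 3 and 4 and progenitor replicates 1, 2 and 4 (adjusted p up to 0.114), and 3.83 ± 0.52 (SE, adjusted p = 7.4e-05) for stem against niche. Smc4, the ATPase shared by both condensins, had 44.5, 29.4, 32.8 and 43.4 in stem, 4.38, 16.6, 19.9 and 17.5 in progenitor and 2.04, 3.31, 3.78 and 1.65 in niche, with 3.40 ± 0.47 (SE, adjusted p = 9.4e-05) for stem against niche and 1.95 ± 0.47 (SE, adjusted p = 0.0149) for progenitor against niche. Progenitor replicate 1 was the lowest of its group, and the last call was lost without progenitor replicates 2, 3 and 4 (adjusted p up to 0.0637). Its partner Smc2 gave 3.09 ± 0.52 (SE, adjusted p = 0.00048) for stem against niche. Smc3, the cohesin ATPase, which also acts outside division, was at 38.4, 24.3, 32.2 and 36.8 in stem, 4.76, 31.7, 36.6 and 34.7 in progenitor and 1.12, 13.6, 30.6 and 23.95 in niche and was not called in any comparison. Ncaph2, of condensin II, was higher in stem than in progenitor with 1.06 ± 0.31 (SE, adjusted p = 0.0497), and this call was lost without stem replicates 1, 2, 3 and 4 and progenitor replicates 1, 2, 3 and 4 (adjusted p up to 0.148).

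The anaphase-promoting complex did not move as a block. Of 10 genes listed under it with separase and securin-like names, 1 was higher in stem than in progenitor, 4 higher in stem than in niche and none higher in progenitor than in niche. The first was Espl1, which encodes separase, with 6.79, 4.16, 6.55 and 7.82 in stem, 0.231, 1.79, 2.00 and 1.95 in progenitor and 0.173, 0.172, 0.0357 and 0.517 in niche. Its groups did not overlap between stem and the others, and the log2 fold change was 1.62 ± 0.42 (SE, adjusted p = 0.0267) against progenitor, lost without stem replicates 1, 3 and 4 and progenitor replicates 1, 2 and 3 (adjusted p up to 0.0772), and 2.57 ± 0.42 (SE, adjusted p = 0.00039) against niche. Among subunits of the complex, Anapc15, Anapc7 and Anapc4 were higher in stem than in niche by 1.74, 1.98 and 1.83. The call of Anapc15 was lost without stem replicates 1 and 3 and niche replicate 2 (adjusted p up to 0.0602), and that of Anapc4 without stem replicates 1, 3 and 4 and niche replicates 1 and 4 (adjusted p up to 0.0872). Anapc11, the RING subunit, was at 77.05, 80.7, 93.9 and 91.9 in stem, 164, 74.6, 73.2 and 74.6 in progenitor and 163, 56.99, 45.04 and 44.2 in niche, and Cdc16, Anapc2, Anapc10 and Anapc13 were likewise not called. Pttg1ip, a membrane glycoprotein named for its binding to securin, was -0.38 ± 0.30 (SE, adjusted p = 0.635) for stem against progenitor.

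Among 12 tested cyclin-dependent kinases and partners, Cdk6 was called higher in all 3 comparisons, Cdk4 was called higher in stem than in niche, Cdk5r1 was called lower in stem in both comparisons with it, and the other 9 were not called. The shares called higher were 8.33%, 16.7% and 8.33%, not far from the 3.74%, 11.3% and 6.09% of all tested genes. Cdk6, a kinase of the early cell cycle that works with D cyclins, was at 221, 149, 266 and 245 in stem, 57.9, 95.9, 83.7 and 93.5 in progenitor and 4.75, 5.62, 9.41 and 11.98 in niche. Its groups did not overlap, and the log2 fold changes were 1.39 ± 0.34 (SE, adjusted p = 0.0174) for stem against progenitor, 4.67 ± 0.34 (SE, adjusted p = 3.2e-07) for stem against niche and 3.28 ± 0.34 (SE, adjusted p = 1.8e-05) for progenitor against niche. The first was lost without stem replicates 1, 3 and 4 and progenitor replicate 1 (adjusted p up to 0.0676). Cdk4, which has the same partners, was the more abundant in every library, at 336, 269, 401 and 406 in stem, 364, 241, 245 and 243 in progenitor and 276, 140.4, 125 and 146 in niche. It was called between stem and niche (1.09 ± 0.29 (SE, adjusted p = 0.0137)) and was 0.37 for stem against progenitor. The log2 ratio of Cdk6 to Cdk4 averaged -0.69 ± 0.12 in stem, against -1.72 ± 0.62 in progenitor and -4.28 ± 0.97 in niche (SD, n = 4 each).

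The remaining kinases, Cdk8, Cdk10, Cdk11b, Cdk12, Cdk16, Cdk17, Cdk19 and Cdk20, were not called in any comparison. Several of these act in transcription and not in cell division. Cdk5r1, the p35 activator of the neuronal kinase Cdk5, was the gene that ran the other way, at 10.3, 6.14, 7.28 and 10.4 in stem, 33.4, 27.99, 22.9 and 21.5 in progenitor and 20.6, 17.5, 41.96 and 21.5 in niche. All 4 stem libraries were below all progenitor and niche libraries, and Cdk5r1 fell by 1.54 ± 0.38 (SE, limma, adjusted p = 0.0218) from progenitor to stem. This call was lost without stem replicates 2 and 3 and progenitor replicates 1, 2 and 3 (adjusted p up to 0.0762). Between stem and niche the value was -1.42 ± 0.38 (SE, adjusted p = 0.0154). It was not called under library totals alone (adjusted p = 0.174) or with only the 2 groups compared (adjusted p = 0.0565). The neuroblast markers moved with Cdk5r1 in stem: the 4 listed of 7 summed to 54.4 to 109 there, against 719 to 1774 (progenitor) and 159 to 298 (niche), and their part in the result was not tested. Tubb3 and Stmn2 carry these sums, while Eomes and Neurog2 had means of 23.2 and 10.3 in stem, 41.6 and 10.8 in progenitor and 0.719 and 0.227 in niche.

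Only 2 cyclins were among the 79 genes. Ccne2, cyclin E2 of the entry into DNA replication, was at 25.5, 13.7, 29.5 and 28.9 in stem, 4.70, 7.79, 11.4 and 14.8 in progenitor and 0.606, 1.73, 0.225 and 10.97 in niche, and was higher in stem than in niche by 3.11 ± 0.64 (SE, adjusted p = 0.00245). Progenitor replicate 4 at 14.8 lay above the lowest stem library at 13.7, and stem against progenitor gave 1.29 ± 0.64 (SE, adjusted p = 0.313). Ccnd3, a D cyclin, was at 4.88, 6.15, 8.52 and 5.31 in stem, 7.89, 4.26, 2.97 and 3.22 in progenitor and 2.98, 9.36, 8.38 and 5.61 in niche, with overlapping groups in all comparisons and 0.42 ± 0.46 (SE, adjusted p = 0.766) for stem against progenitor.

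The genes named as inhibitors did not share a pattern. Cdkn1a, the p21 inhibitor that p53 induces, was at 10.4, 13.1, 16.5 and 16.6 in stem, 8.34, 7.25, 8.64 and 9.68 in progenitor and 39.3, 19.1, 13.2 and 25.9 in niche. Progenitor libraries were below both other groups without overlap, and the log2 fold change of progenitor against niche was -1.32 ± 0.40 (SE, adjusted p = 0.0444). That call was lost without stem replicates 1, 2, 3 and 4, progenitor replicates 1, 2, 3 and 4 and niche replicates 2 and 4 (adjusted p up to 0.124), and also under library totals alone, the replicate block, the fit of only 2 groups and voom. Cdkn1b, the p27 inhibitor of quiescent cells, had its highest mean in progenitor, at 31.6, 22.02, 35.98 and 34.8 in stem, 76.00, 44.7, 39.6 and 39.8 in progenitor and 43.6, 20.95, 17.5 and 10.9 in niche, and was not called (-0.64 ± 0.40 (SE, adjusted p = 0.495) for stem against progenitor and 1.19 ± 0.40 (SE, adjusted p = 0.07) for progenitor against niche). The difference between progenitor and niche was called without niche replicate 1 (1.44, adjusted p = 0.00422), without progenitor replicate 1 and niche replicate 1 (1.24, adjusted p = 0.00641), with library totals alone (1.79, adjusted p = 0.00153) and with voom (1.25, adjusted p = 0.0331), and stem was called above niche with library totals alone (1.19, adjusted p = 0.0116) and without both libraries (0.83, adjusted p = 0.0241). Cdkn3 is a phosphatase of cyclin-dependent kinases that peaks in dividing cells. At 76.5, 55.5, 122 and 129 in stem, 31.9, 18.96, 25.7 and 26.9 in progenitor and 1.48, 12.4, 1.12 and 1.93 in niche it followed the mitotic genes, with 4.59 ± 0.53 (SE, adjusted p = 2.0e-05) for stem against niche, 2.80 ± 0.53 (SE, adjusted p = 0.00262) for progenitor against niche and 1.79 ± 0.53 (SE, adjusted p = 0.0549) for stem against progenitor. Cdkn2aipnl, an RNA-binding protein that only shares the name, was not called.

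Of the 14 other Cdc and Cdca genes, 2 were higher in stem than in progenitor, 8 higher in stem than in niche and 6 higher in progenitor than in niche. These were 14.3%, 57.1% and 42.9%, against 3.74%, 11.3% and 6.09% of all tested genes. Cdca5, which encodes sororin, the protector of cohesin, was at 60.3, 30.5, 51.5 and 57.9 in stem, 0.503, 11.9, 15.9 and 13.6 in progenitor and 1.13, 0.187, 0.427 and 0.806 in niche. Progenitor replicate 1 lay among the niche libraries. The log2 fold change was 2.57 ± 0.66 (SE, adjusted p = 0.0248) for stem against progenitor, lost without stem replicates 1, 3 and 4 (adjusted p up to 0.0779), and 4.95 ± 0.66 (SE, adjusted p = 6.5e-05) for stem against niche. Cdc6, the loader of the replicative helicase, was at 24.5, 24.4, 42.7 and 44.5 in stem, 3.21, 9.43, 9.19 and 12.5 in progenitor and 0.394, 0.196, 0.245 and 0.523 in niche, and the groups did not overlap. Its log2 fold changes were 1.93 ± 0.46 (SE, adjusted p = 0.016), 4.66 ± 0.46 (SE, adjusted p = 4.8e-06) and 2.72 ± 0.46 (SE, adjusted p = 0.00101) for stem against progenitor, stem against niche and progenitor against niche, and the first was lost without stem replicates 3 and 4 (adjusted p up to 0.0661).

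Cdca7, a chromatin factor of proliferating cells, was nearer between stem and progenitor, at 53.2, 33.00, 58.7 and 46.6 in stem, 17.3, 20.2, 30.7 and 32.7 in progenitor and 1.48, 0.467, 1.89 and 2.25 in niche. It gave 3.39 ± 0.41 (SE, adjusted p = 6.5e-05) for progenitor against niche, the largest of the 77 in that comparison, and 0.91 ± 0.41 (SE, adjusted p = 0.251) for stem against progenitor. Cdca3, an adaptor that triggers entry into mitosis, had 139, 89.6, 139.6 and 140.0 in stem, 39.4, 28.96, 35.5 and 41.2 in progenitor and 41.9, 1.18, 0.844 and 2.19 in niche. Niche replicate 1 was far above the other niche libraries and overlapped progenitor, and stem against progenitor gave 1.77 ± 0.73 (SE, adjusted p = 0.198), against an adjusted p of 0.000426 without niche replicate 1. The phosphatase genes Cdc25a and Cdc25b, which remove the brake on cyclin-dependent kinases, differed from each other. Cdc25b was at 27.3, 26.8, 26.3 and 27.9 in stem, 0.981, 6.92, 10.02 and 11.3 in progenitor and 0.923, 7.54, 2.93 and 0.520 in niche, and its 4 stem libraries lay within 26.3 to 27.9. Cdc25a was at 9.87, 5.49, 4.05 and 13.9 in stem, 13.3, 5.89, 7.37 and 5.41 in progenitor and 0.627, 0.706, 2.02 and 0.930 in niche, and stem and progenitor overlapped.

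Cdc25b was 2.05 ± 0.63 (SE, adjusted p = 0.0653) for stem against progenitor and 3.16 ± 0.63 (SE, adjusted p = 0.0021) for stem against niche. Cdc25a was 0.00 ± 0.48 (SE, adjusted p = 0.999) for stem against progenitor and 2.09 ± 0.48 (SE, adjusted p = 0.0106) for progenitor against niche. Cdc42se1, Cdc42bpa, Cdc42bpg and Cdc42ep1 are effectors and partners of the cell polarity GTPase Cdc42, and Cdc34 and Cdc37l1 act in protein turnover and folding. Cdc42se1 was higher in stem than in niche, 1.04 ± 0.30 (SE, adjusted p = 0.0228), a call lost without stem replicates 1, 2 and 4 and niche replicate 3 (adjusted p up to 0.078). Cdc37l1 was lower, -1.18 ± 0.36 (SE, adjusted p = 0.0285), a call lost without stem replicates 1, 2, 3 and 4 and niche replicate 4 (adjusted p up to 0.0754). Library totals alone, a replicate block, the fit of only the 2 groups compared and voom lost it too. Cdc42ep1 had the lowest value of these 14 genes for stem against progenitor, -0.86 ± 0.62 (SE, adjusted p = 0.571).

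Promoters are shown for 6 genes because mitotic genes are known for shared promoter elements. The sequences are the 150 bases before the RefSeq start (GRCm38.p6, plus strand), and 68 of the 79 genes were matched in the table of promoters. Capitals mark 3 motifs on either strand: the cell cycle homology region (TTTGAA or TTTAAA), the CCAAT box (ATTGG on the other strand) and the E2F motif (TTTCCCGC, TTTGGCGC or TTTCGCGC). Plk1 (chr7:122159285-122159434), Aspm (chr1:139454623-139454772) and Ttk (chr9:83834539-83834688) were called in all 3 comparisons, and Cdkn3 (chr14:46760391-46760540) followed them in level. Cdc25a (chr9:109875429-109875578) overlapped between stem and progenitor, and Cdk4 (chr10:127063385-127063534) was not called between them.
Plk1: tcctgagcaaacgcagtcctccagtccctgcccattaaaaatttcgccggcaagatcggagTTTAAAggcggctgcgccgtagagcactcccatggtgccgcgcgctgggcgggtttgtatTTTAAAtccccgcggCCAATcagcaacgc
Aspm: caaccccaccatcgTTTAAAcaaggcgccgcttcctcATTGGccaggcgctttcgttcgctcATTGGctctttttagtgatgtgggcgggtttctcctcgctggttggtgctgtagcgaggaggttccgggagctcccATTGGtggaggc
Ttk: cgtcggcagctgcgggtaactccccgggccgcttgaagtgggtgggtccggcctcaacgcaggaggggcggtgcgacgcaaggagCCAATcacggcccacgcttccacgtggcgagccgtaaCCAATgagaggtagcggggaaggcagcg
Cdkn3: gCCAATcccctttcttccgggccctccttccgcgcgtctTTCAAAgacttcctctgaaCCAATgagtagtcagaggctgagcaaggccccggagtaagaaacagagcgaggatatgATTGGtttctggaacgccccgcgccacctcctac
Cdc25a: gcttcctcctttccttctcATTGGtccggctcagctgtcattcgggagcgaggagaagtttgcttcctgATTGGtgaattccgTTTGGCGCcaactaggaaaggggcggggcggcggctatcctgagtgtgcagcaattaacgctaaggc
Cdk4: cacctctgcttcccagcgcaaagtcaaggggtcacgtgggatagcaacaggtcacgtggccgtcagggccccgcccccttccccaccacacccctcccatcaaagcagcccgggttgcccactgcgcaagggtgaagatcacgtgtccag

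Plk1, Aspm and Cdkn3 held both a cell cycle homology region and CCAAT boxes, Ttk 2 CCAAT boxes, Cdc25a an E2F motif next to CCAAT boxes, and Cdk4 none of these letters in this window. Over the longer window of 250 bases before to 50 after the start, 38.1% of 84 promoters of the matched genes held a cell cycle homology region, against 27.6% of 32851 promoters in the table and 19.9% of 7450 promoters of tested genes. For CCAAT the shares were 48.8%, 37.4% and 36.7%, and for E2F 9.52%, 1.84% and 2.86%. Genes called higher in stem than in niche had the motifs in 47.9%, 58.3% and 16.7% of 48 promoters, and the other members in 25%, 36.1% and 0% of 36. Of 14 promoters of kinetochore, centromere, spindle and cytokinesis genes, 92.9% held a CCAAT box. The 6 genes shown do not stand for all members. Nusap1 and Cdk6, called in all 3 comparisons, held none of the motifs in the longer window. Cdkn1b, not called in any comparison, held a cell cycle homology region and CCAAT boxes. These matches describe letters and not bound sites.

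Cell cycle genes outside the symbol search were taken from a list chosen with earlier results of these data known. Of the 97 genes listed 49 were in the table, and all 49 were tested. Of these 7 (14.3%) were higher in stem than in progenitor and 0 lower, against 3.74% and 3.54% of all tested genes. Between stem and niche, 25 (51.0%) were higher and 3 (6.12%) lower in stem, against 11.3% and 10.6% of all tested genes. Between progenitor and niche, 14 (28.6%) were higher and 1 (2.04%) lower in progenitor, against 6.09% and 5.67%. Cks2, a subunit of cyclin-dependent kinases, was among the most abundant, at 517, 398, 558 and 584 in stem, 184, 157, 164 and 213 in progenitor and 12.4, 13.4, 11.4 and 18.7 in niche. Its groups did not overlap, and its log2 fold change was 1.51 ± 0.26 (SE, adjusted p = 0.00182) for stem against progenitor. Melk and Pbk, kinases of dividing cells, gave 4.93 ± 0.40 (SE, adjusted p = 7.7e-07) and 5.43 ± 0.65 (SE, adjusted p = 2.6e-05) for stem against niche. Tacc3, of the spindle, gave 2.04 ± 0.50 (SE, adjusted p = 0.0196), a call lost without stem replicates 1, 3 and 4 and progenitor replicates 1 and 2 (adjusted p up to 0.0677), and Depdc1a 2.62 ± 0.57 (SE, adjusted p = 0.00947) for stem against progenitor. Both calls were lost with a pseudocount of 0.1 RPKM (limma, adjusted p = 0.0517 for Tacc3 and 0.0547 for Depdc1a).

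Ube2c, the ubiquitin-conjugating enzyme that serves the anaphase-promoting complex, stood at 191, 136, 188 and 184 in stem, 58.3, 32.5, 40.8 and 50.8 in progenitor and 24.3, 6.44, 1.09 and 3.44 in niche. It was 2.82 ± 0.56 (SE, adjusted p = 0.00355) for progenitor against niche. Foxm1, the transcription factor of mitotic genes, was 1.76 ± 0.47 (SE, adjusted p = 0.0322) for stem against progenitor and 3.21 ± 0.47 (SE, adjusted p = 0.00015) for stem against niche. Genes lower in stem than in niche were Pkmyt1, an inhibitory kinase of Cdk1, with -1.73 ± 0.48 (SE, adjusted p = 0.0165), the kinetochore gene Zwint with -1.06 ± 0.31 (SE, adjusted p = 0.0215) and the antiproliferative gene Tob1 with -1.02 ± 0.35 (SE, adjusted p = 0.0476). Foxm1, these 3, E2f7 and Tfdp2 were named after their values were seen, and their calls were not checked with omitted libraries or other settings. Of the E2F family E2f7 was higher in stem than in niche, 1.71 ± 0.37 (SE, adjusted p = 0.00391), as was the partner Tfdp2, 1.36 ± 0.47 (SE, adjusted p = 0.0492), while E2f2, E2f4, E2f5 and E2f6 were not called in any comparison.

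The libraries within a group were not alike. The 12 kinetochore, centromere, spindle and cytokinesis genes summed to 680, 405, 639.7 and 621 in stem, 144, 175, 199.5 and 223 in progenitor and 88.1, 15.97, 24.9 and 30.8 in niche. Stem replicate 2 was the lowest of the stem libraries, and it had the highest macrophage sum of all 12, 7327 against 1905 to 2811 in the other stem libraries. Across groups the macrophage sum did not follow the mitotic one: it was high in stem and niche and low in progenitor. Its members differed, however. Stem means of Mrc1 and Adgre1 were 355 and 285, their progenitor means 9.20 and 7.46, and their niche means 8.29 and 44.7. Both were called higher in stem than in niche (limma, adjusted p = 4.5e-06 and 0.00738). Niche means of Csf1r, Tyrobp and Ctss stayed high, at 272, 1339 and 2096. What macrophage RNA contributed to the differences was not tested. Markers of other cells were also lower in stem than in progenitor: the astrocyte sum (4 of 5 listed) was 414 to 875 in stem against 2892 to 4409, the oligodendrocyte sum (3 of 5) 33.96 to 249.3 against 1060 to 3094, the mural sum (3 of 3) 10.52 to 177 against 668 to 1611, and the mature neuron sum (2 of 5) 5.32 to 9.76 against 18.5 to 36.99. In niche these 4 sums were 3177 to 5080, 1181 to 2519, 543 to 1702 and 111 to 261. The part of RNA from any of these cells in the difference between stem and progenitor was not tested. In niche the red cell markers (3 of 5 listed) summed to 36929 to 1044788, against 224 to 2070 (stem) and 584 to 3375 (progenitor), and their part was not tested either. In bulk RNA of sorted cells, fewer dividing cells and less mitotic RNA per cell cannot be told apart.

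**Figure D5:**
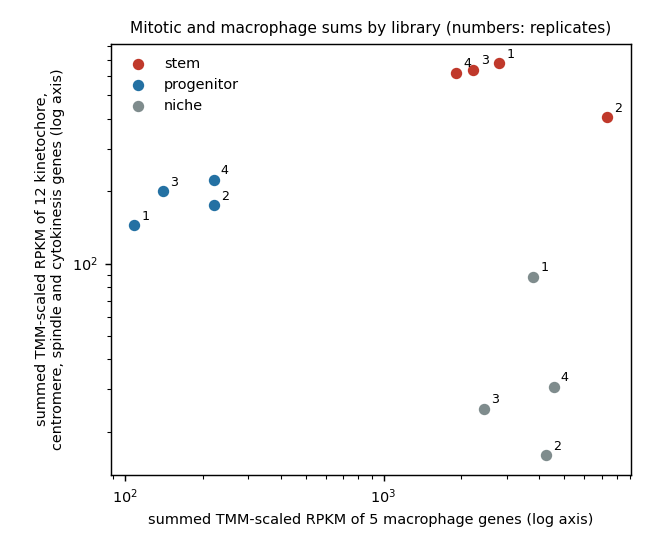
Summed TMM-scaled RPKM of 12 kinetochore, centromere, spindle and cytokinesis genes (vertical axis, log) against that of 5 macrophage genes (horizontal axis, log), with 1 point per library numbered by replicate. The 3 populations take separate corners: stem at 405 to 680 on the vertical axis, progenitor at 144 to 223 with the lowest macrophage sums, and niche at 15.97 to 88.1.

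Whether reads were counted by strand is not given in the sources used here. Exons of 27 of the 79 genes overlap an annotated gene on the other strand, so reads of both genes could be mixed there. The overlap covered 38.4% of the exon bases of Anapc15 (with Tomt), 26.7% of Cenpu (with Primpol), 19.7% of Ncaph2 with Sco2 and 12.7% with Tymp, 19.7% of Cdk4 (with Tspan31), 19.7% of Cdca7l (with Dnah11), 17.4% of Ccne2 (with Ints8), 13.4% of Ncapg (with Lcorl) and 11.1% of Prc1 (with Rccd1).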

How the data were processed

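RNA of 12 libraries, 4 per sorted population, was measured. Per the labels' protocols, cells were sorted from fresh dentate gyrus, RNA was extracted with a column kit, and RNA from 1000 cells was amplified with a polymerase before Illumina library preparation. The authors deposited 1 table of log2 values for 10749 Ensembl genes, read here as log2(RPKM + 1). The log was undone and reads were recovered with a length for each gene. A length was accepted only if all values of the gene came out as whole reads. The tolerance was 1e-05 reads, or 1e-08 of the reads above 1000. Exon lengths from the annotation met this for 1228 genes, and for 9282 the length was taken from the values. Wholeness was thus a condition of the recovery and not a check of it. The build was GRCm38 (mm10) per the submitters' processing notes, and 10579 identifiers matched a symbol. The sources used here name no aligner or counter.

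Genes were kept at 10 reads per median library in 4 libraries and 15 reads in total. RPKM values were divided by TMM factors, and log2(value + 1 RPKM) was fitted with limma 3.58.1 in R 4.3.3, with 1 mean per group over all libraries, an intensity trend and robust spread. Fold changes on this scale understate changes of low genes. P-values are two-sided and adjusted by the Benjamini-Hochberg method over 8361 genes, at a threshold of 0.05. The limma script was tested on simulated data. The labels name no molecular identifiers for the amplified RNA, so depth bounds counting error only. The genes and lists were chosen with earlier results of these data known. Genes named are the 8 called ones with the largest change and no overlap in each comparison, a list of 37 textbook genes (18 of which were not analysed here), and the highest and lowest of each role for stem against progenitor. Up to 4 other cell cycle genes per comparison were added by size, and further genes were named after their values were seen. Alternatives were other pseudocounts, no filter, library totals alone, a replicate block, only the 2 groups compared, limma's voom on recovered reads and omitted libraries.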

Additional observations from a re-analysis of the deposited data

Results flagged for a closer look

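In 132 groups of 4 values (44 genes in 3 populations), 18 held a library whose gap to its nearest neighbour was too large a share of the whole range by Dixon's test, where chance flags about 1 in 20. They were not spread evenly: 7 were in stem replicate 2 and 9 in progenitor replicate 1. In stem replicate 2, always as the lowest, these were Aspm (TMM-scaled RPKM of 7.07, others from 14.5), Cdca3 (89.6, others from 139), Cenpe (14.5, others from 24.4), Ncapg (10.9, others from 24.3), Plk1 (62.8, others from 139), Tacc3 (35.2, others from 61.9) and Ube2c (136, others from 184). In progenitor replicate 1 the lowest values were those of Cdca5 (0.503), Cenpi (0.613), Espl1 (0.231), Smc3 (4.76), Smc4 (4.38) and Ttk (1.04), and the highest were those of Aurkaip1 (121), Cdk4 (364) and Mad2l2 (52.8). The remaining cases were Bub1b in niche replicate 1 (36.04, others up to 1.30) and Tacc3 in niche replicate 2 (0.321, others from 1.14).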

How the results depend on the processing

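Counts of the 77 genes called are given as higher and lower. For stem against progenitor (18 and 1), the number higher was 5 with a pseudocount of 0.1 RPKM, 35 with only the 2 groups compared and 28 with voom, and the number lower was 2 with only the 2 groups compared and 2 without progenitor replicate 1 and niche replicate 1. Over all tested genes the number higher was 313 in the main fit, then 240, 674 and 365 in the same order. The number lower was 296, then 738 and 587 (of 8361 genes, or 8280 without both libraries). For stem against niche (45 and 2), the number lower was 0 with library totals alone, 0 with only the 2 groups compared, 1 with voom and 5 without progenitor replicate 1 and niche replicate 1. Over all tested genes the number lower was 886 in the main fit, then 586, 600, 822 and 1626 in the same order. For progenitor against niche (24 and 1), the number higher was 40 with library totals alone and 38 without both libraries, and the number lower was 0 with library totals alone, with only the 2 groups compared and with voom, and 3 without both libraries. Over all tested genes the number higher was 509 in the main fit, then 1525 and 886 in the same order. The number lower was 474, then 314, 283, 506 and 1096. Leaving out 1 library at a time gave 4 to 30 higher and 0 to 1 lower for stem against progenitor, 40 to 46 and 1 to 5 for stem against niche, and 15 to 32 and 0 to 2 for progenitor against niche. Over all tested genes these omissions gave 192 to 536, 635 to 1078 and 246 to 671 higher in the same order. With library totals alone the median of all tested genes was 0.58 (0.11 with TMM) for stem against niche and 0.62 (0.17) for progenitor against niche, and all calls for stem against niche became 2018 higher and 586 lower, from 942 and 886. Gtse1 for progenitor against niche was -0.00 and became 1.55 without progenitor replicate 1 and niche replicate 1 (limma, adjusted p = 0.0268), and ran from -0.61 to 0.79 with 1 library left out. The causes were not tested. Deviations of same-numbered libraries from their group means had correlations of -0.13 to 0.21, and those of progenitor and niche were all positive (0.03 to 0.21). Differently numbered libraries were not compared, so these values cannot tell whether the numbers mark pairs. The main fit did not pair them. With a replicate block the counts were 15 and 1, 46 and 1, and 26 and 0. All tested genes gave 323 and 293, 939 and 890, and 473 and 476 with that block. In a low-level group of few reads, such as niche, small differences could not be resolved.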
